A study of Homo sapiens with 23 samples.

Results

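The regions described here are intergenic stretches of the SW480 genome in which histone acyl marks were called far from any gene start. The SW480 line, long established, derives from a human colorectal carcinoma and is epithelial. A region is a peak of 1 library, and it was taken as distal when its summit lay in no protein-coding or lncRNA gene of GENCODE 44 and 10 kb to 100 kb from the nearest start site of such a gene. By this rule 275594 of the 2022255 regions in the 20 immunoprecipitated lists were distal, or 13.6%. The marks were lysine propionylation (pr), butyrylation (bu) and acetylation (ac) at H3K18 and H4K12, mapped by ChIP-seq, in which an antibody pulls down the chromatin that carries a mark. H3K18pr and H4K12pr were mapped in cells given 10 mM sodium propionate (NaPr), the butyryl marks after 1 mM sodium butyrate (NaBu), and H3K18ac and H4K12ac under both treatments and in untreated cells. Treatments lasted 12 to 16 hours. Each of these 10 groups had 2 libraries, and each of the 3 conditions had 1 input library of sheared chromatin without immunoprecipitation. The labels do not say whether replicates were separate cultures, so p-values within strata measure only the spread between these libraries, which may be technical. Sign-flip tests over the 10 groups measure the spread between group means instead. These groups share a cell line and sequencing runs, so they are not 10 independent replicates.

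Intergenic DNA far from any gene start holds enhancers, short stretches bound by transcription factors that loop to promoters and raise transcription. Histone acetylation opens chromatin there and is read by bromodomain proteins, and propionyl and butyryl groups are longer relatives of the acetyl group that can be laid down by the same acetyltransferases. Propionate and butyrate are short-chain fatty acids made by gut bacteria from fibre, and both feed the acyl-CoA pools of colon cells. The lists used here record where signal passed a threshold, and they do not say how much signal each place carried in one group relative to another.

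The sequences below are the 200 bp windows centred on the strongest summit of 6 distal regions, all read from the plus strand of hg38. The first 3 belong to the highest-ranked regions that all 20 libraries held and no input list covered. The fourth is the first in the same ranking whose window holds an AP-1 match. The last 2 lead the regions held by both propionyl replicates and by neither acetyl replicate in NaPr cells, for H3K18 and for H4K12. Capitals mark matches to any of 7 motifs, searched on both strands, and a window without capitals holds none of these letters.
chr12:52873871-52874070, nearest to KRT78: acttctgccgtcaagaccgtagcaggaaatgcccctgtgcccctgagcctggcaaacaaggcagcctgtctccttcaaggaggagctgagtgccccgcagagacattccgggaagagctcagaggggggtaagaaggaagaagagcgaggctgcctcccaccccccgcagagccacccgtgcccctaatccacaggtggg
chr11:9364129-9364328, nearest to IPO7: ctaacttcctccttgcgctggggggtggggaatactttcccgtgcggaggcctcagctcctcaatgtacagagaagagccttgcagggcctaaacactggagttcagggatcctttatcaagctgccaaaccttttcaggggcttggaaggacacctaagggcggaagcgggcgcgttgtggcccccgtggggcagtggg
chr17:43315727-43315926, nearest to CCDC200: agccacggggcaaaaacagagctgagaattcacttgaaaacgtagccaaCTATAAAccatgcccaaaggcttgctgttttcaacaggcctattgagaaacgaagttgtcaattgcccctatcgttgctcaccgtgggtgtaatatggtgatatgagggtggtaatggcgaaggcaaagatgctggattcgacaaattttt
chr20:47844610-47844809, nearest to SULF2: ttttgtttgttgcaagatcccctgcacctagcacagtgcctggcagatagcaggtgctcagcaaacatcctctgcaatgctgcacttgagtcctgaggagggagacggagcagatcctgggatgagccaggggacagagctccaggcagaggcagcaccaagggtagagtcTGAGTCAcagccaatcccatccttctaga
chr7:129531528-129531727, nearest to SMKR1: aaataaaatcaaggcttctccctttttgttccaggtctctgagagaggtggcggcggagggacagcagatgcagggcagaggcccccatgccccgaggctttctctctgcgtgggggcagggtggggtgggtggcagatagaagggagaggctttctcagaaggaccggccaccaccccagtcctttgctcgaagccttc
chr14:100192506-100192705, nearest to DEGS2: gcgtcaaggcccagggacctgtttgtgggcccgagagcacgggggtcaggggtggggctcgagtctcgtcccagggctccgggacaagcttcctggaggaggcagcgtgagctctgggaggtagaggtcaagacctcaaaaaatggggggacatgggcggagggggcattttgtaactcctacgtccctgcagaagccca

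The AP-1 motif was searched as TGACTCA and the SMAD motif as CTGTCTGG. Krüppel-like factors (KLF) were represented by GGGTGTGG and the Wnt effectors TCF/LEF by CTTTGAT. The letters for HNF4 were CAAAGTCCA, those for GATA factors were AGATAA, and those for the caudal factors (CDX) were TTTATNG. In the CCDC200 window the capitals are a CDX match on the minus strand, and in the SULF2 window they are an AP-1 match on the minus strand. Among 299831 windows of the same length spread over the distal genome, 3.15% held AP-1, 0.804% SMAD, 1.56% KLF, 3.32% TCF/LEF, 0.259% HNF4, 14.6% GATA and 15.6% CDX. Of the 128 regions that all 20 libraries held and no input list covered, 5 (3.91%) had an AP-1 match in the summit window and 35 (27.3%) had a match to any of the 7 motifs.

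Libraries differed in ways that touch the values below. Lists held 8158 to 208823 regions. They also differed in the strength of their calls. Distal regions with q under 0.05 made up 94.3% and 87.8% in H3K18pr and 96.0% and 96.1% in H4K12pr, but 36.9% in H3K18bu replicate 1. H3K18ac NaPr replicate 1 stood apart, with a list of 202787 regions and a distal share of 9.42% against 18.1% in its replicate, and among the 1204 strongest distal regions of each library it overlapped H3K18ac untreated replicate 1 more (83.8%) than its own replicate (57.0%). H4K12ac NaBu replicate 2 had 11680 regions against 88658 in replicate 1. Run tags in the names of the lists divide the libraries into 3 runs: propionyl libraries and the NaPr input, acetyl libraries of NaPr and of untreated cells with the untreated input, and all NaBu libraries. Mark and run cannot be told apart for propionyl against acetyl, nor can treatment and run for NaBu against untreated. Background depth recovered from the lists was 3.38 to 8.38 fragments per kb in propionyl libraries and 11.2 to 38.6 in NaPr and untreated acetyl libraries, and it could not be recovered from the NaBu lists. As a check of the cell type, KRT8 and KRT18, keratins of simple epithelia, had a region within 1 kb of their start site in 20 of 20 libraries, EPCAM and KRT19 in 19, CDH1 and VIL1 in 12, CDX2 in 10, and CDX1 and LGR5 in 3. Of markers of other lineages, PTPRC, ALB, TTR, RBFOX3 and MYH6 had one in 0 libraries, CD3E and MYOD1 in 1 and GFAP in 10.

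Every mark had regions called in distal intergenic DNA, but these made up a smaller part of each immunoprecipitated list than of the genome. H3K18 marks had the higher distal share and H4K12 marks the lower. The distal class covered 20.4% of the 2938 Mb of known sequence, or 599.6 Mb, beside 57.7% for gene bodies, 2.34% for promoters (within 1 kb of a start), 5.50% for intergenic DNA within 10 kb and 14.0% for DNA beyond 100 kb. Distal shares were 17.004% and 17.3% in the H3K18pr libraries, 12.3% and 11.3% in H4K12pr, 15.8% and 19.1% in H3K18bu, and 14.2% and 14.8% in H4K12bu. In NaPr cells H3K18ac gave 9.42% and 18.1% and H4K12ac 13.3% and 14.0%. In NaBu cells they gave 16.97% and 15.6%, and 16.3% and 12.4%, and in untreated cells 15.9% and 18.1%, and 9.48% and 10.1%. All 20 values lay below the genome share, while the NaPr and NaBu inputs (20.8% in both) lay at it and the untreated input (17.8%) below it.

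**Figure D1:**
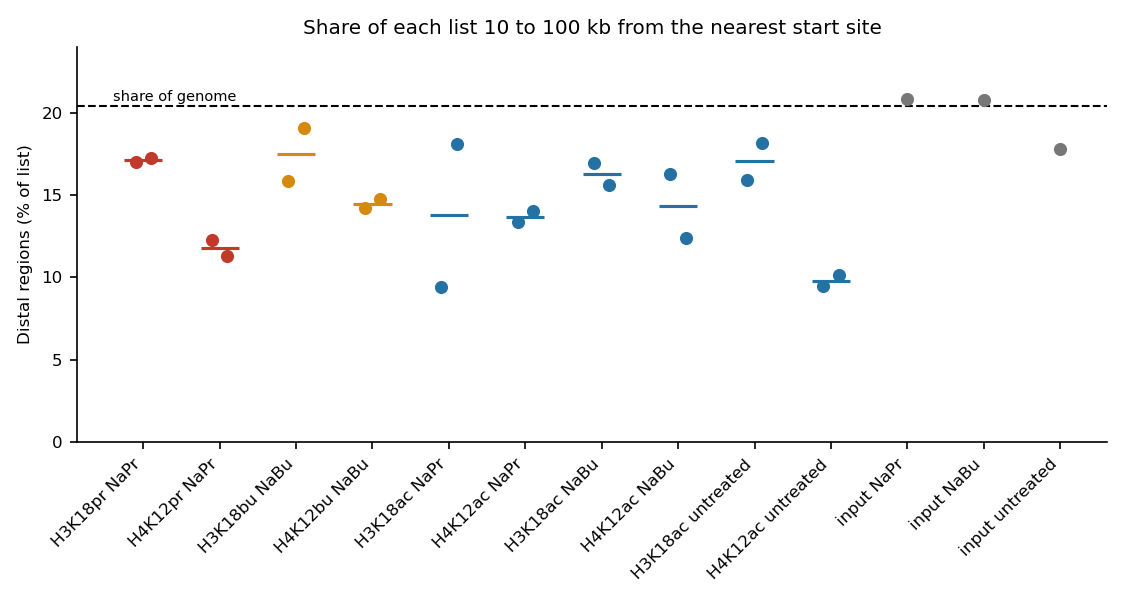
Percentage of the regions of each library that are distal, by group (points are libraries, short bars group means, the dashed line the distal share of the genome). All 20 immunoprecipitated libraries sit between 9.42% and 19.1%, below the 20.4% of the genome, and the 2 libraries of H3K18ac NaPr lie far apart.

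The mean over the 10 groups was 14.6%, which is 5.83 percentage points under the genome share, in the same direction in 10 of 10 groups (two-sided exact sign-flip permutation test, p = 0.00195, the smallest this design can give, adjusted p = 0.00586 by Benjamini-Hochberg over 9 tests). Within the distal class the regions lay closer to genes than the DNA does. Between 29.4% and 35.3% of distal regions were 10 to 20 kb from the nearest start against 23.2% of distal DNA, and 19.7% to 27.0% were beyond 50 kb against 34.25%. The nearest start was that of a lncRNA gene for 47.1% to 56.5% of distal regions, against 60.2% of distal DNA. Input lists had 22.99% to 28.9% at 10 to 20 kb, below every immunoprecipitated library. A lncRNA start was nearest for 60.4% and 58.5% of distal regions in the NaPr and NaBu inputs, and for 53.6% in the untreated input, within the range of the immunoprecipitated libraries.

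H3K18 marks exceeded H4K12 marks in distal share by 3.53 percentage points (means 16.3% and 12.8%) over 5 strata of acyl group and treatment, each with 2 libraries on either side. The difference was positive in 5 of 5 strata, with no overlap of libraries in 3 of them (two-sided exact permutation test within strata, 7776 arrangements, p = 0.00849, adjusted p = 0.0255 over 3 properties). It was 7.24 points in untreated acetyl libraries and 5.36 in propionyl libraries, and only 0.0780 for acetyl in NaPr, the stratum that holds the library standing apart. Without that library the difference was 4.40 (exact permutation, adjusted p = 0.00154), and without H3K18ac NaPr replicate 2 it was 2.66 (adjusted p = 0.161). When the 8158 strongest regions of each library were used it was -0.222 (exact permutation, adjusted p = 0.815), so the order of the sites did not hold among the strongest regions.

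Propionyl and butyryl marks did not differ from acetyl marks in distal share beyond the spread of libraries. The difference over 4 strata of site and treatment was 0.691 points (means 15.2% and 14.5%, two-sided exact permutation test, 1296 arrangements, adjusted p = 0.677), and -0.396 without H3K18ac NaPr replicate 1. Only the H4K12pr libraries lay apart from their acetyl counterparts, 1.92 points lower. Among acetyl libraries the share in NaPr cells differed from untreated by 0.2999 points and that in NaBu cells by 1.89 (exact permutation, adjusted p = 1.00 and 0.667, smallest possible p 0.0556 before adjustment). H4K12ac lay above the untreated range in both treatments, by 3.88 points in NaPr and 4.53 in NaBu, while H3K18ac libraries overlapped those of untreated cells. Treatment and run cannot be told apart for NaBu, and the H4K12ac lists differed in length between treated and untreated cells. Without H3K18ac NaPr replicate 1 the NaPr difference was 2.47, and without replicate 2 it was -1.87.

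Distal regions were mostly short, and propionyl lists had the widest. Median widths were 487 and 448 bp in the H3K18pr libraries and 480 and 462 bp in H4K12pr. Butyryl libraries gave 330 and 313 bp (H3K18bu) and 291 and 267 bp (H4K12bu). Acetyl libraries ranged from 210 bp in H4K12ac NaBu replicate 1 to 434 bp in H3K18ac untreated replicate 1. Acyl marks exceeded acetyl marks by 117 bp (means 384.8 and 267.8 bp), in the same direction in 4 of 4 strata (two-sided exact permutation test, p = 0.00926, adjusted p = 0.0278). The size was 170 and 228 bp for propionyl against acetyl at H3K18 and H4K12, and 55.5 and 14.5 bp for butyryl against acetyl. The propionyl libraries came from a run of their own, and their shortest region, which follows the fragment length given to the caller, measured 340 to 350 bp, whereas acetyl libraries of NaPr cells had 180 to 230 bp. In the single NaBu run, where the shortest regions were 165 to 190 bp, the difference was 35.0 bp (exact permutation, p = 0.333). The call was lost with replicates paired by number (exact permutation, adjusted p = 0.0703) and at 8158 regions per library (232.2 bp, adjusted p = 0.438).

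Wide distal regions were most numerous in the propionyl libraries and in untreated H3K18ac replicate 1. Regions of 2 kb or more numbered 961 and 564 in H3K18pr, 528 and 412 in H4K12pr and 813 and 268 in untreated H3K18ac. They numbered 1 to 53 in the butyryl libraries and 2 to 35 in H4K12ac under treatment. No input list held a distal region of that width. The widest reached 21339 bp in H3K18ac untreated replicate 1 and 21048 bp in H3K18pr replicate 1, against 1412 bp in any input. The site difference in median width, 36.2 bp higher at H3K18, did not pass the test over all libraries (exact permutation, adjusted p = 0.133), but it was 663.2 bp among the 8158 strongest regions (adjusted p = 0.00154).

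Distal regions were weaker, narrower and less often found in both replicates than promoter regions, and they resembled regions inside genes. Promoters are the stretches where transcription starts, and acetyl-type marks are known to be dense there. The mean of the group medians of fold enrichment, the deposited ratio of pileup to local background at the summit, was 3.14 at distal regions, 3.92 at promoters and 3.15 in gene bodies. Median widths were 322.8, 459.05 and 328.95 bp. The share of regions that overlapped the other replicate was 38.4%, 66.6% and 39.7%. Distal regions differed from promoters by -0.781 in fold (9 of 10 groups), by -136.25 bp in width (9 of 10) and by -28.2 points in replicate overlap (10 of 10). Adjusted p-values of the exact sign-flip permutation test over the groups were 0.00703, 0.00703 and 0.00586. Against gene bodies the differences were -0.0105 in fold, -6.15 bp and -1.28 points (exact permutation, adjusted p = 0.258, 0.0552 and 0.182).

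**Figure D2:**
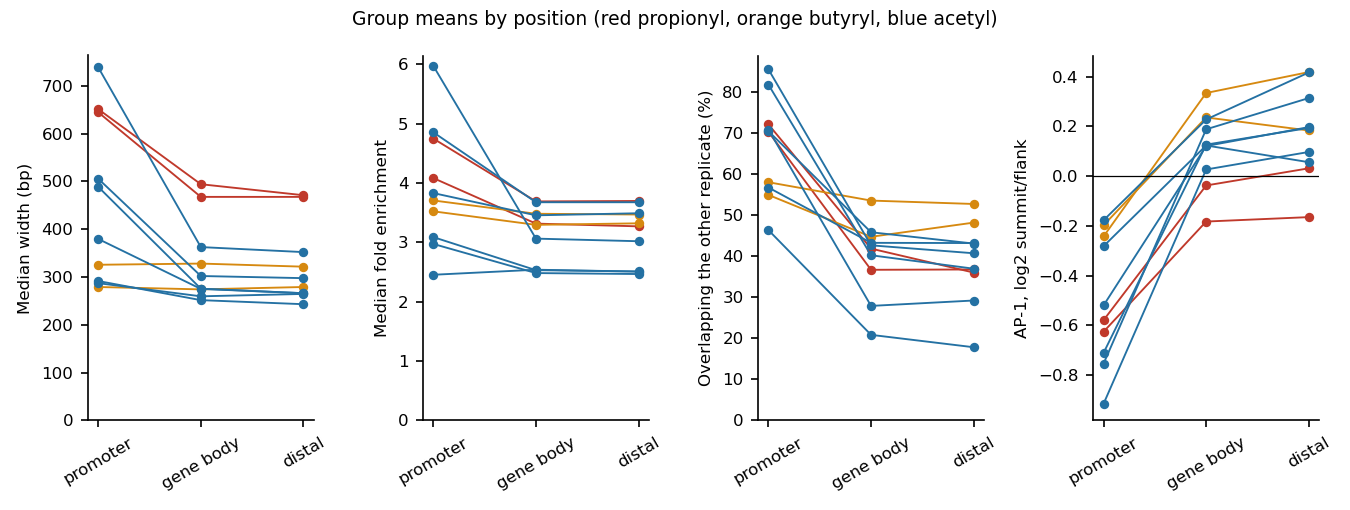
Group means (lines, 10 groups of 2 libraries) of median width, median fold enrichment, replicate overlap and AP-1 enrichment at promoters, in gene bodies and at distal regions. Distal and gene-body values lie close together, and AP-1 is higher at distal summits than at promoters in all 10 groups.

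These contrasts with promoters depended on how deep into a list one looked. Among the 8158 strongest regions of each library distal regions were wider than promoters by 224.6 bp (exact permutation, adjusted p = 0.00879), the fold difference was -0.350 (adjusted p = 0.0844) and replicate overlap differed by -1.94 points (adjusted p = 0.410). At q under 0.05 the width difference was -112.1 bp (exact permutation, adjusted p = 0.0820). Replicate overlap at distal regions differed widely between libraries. It was 7.62% for H4K12ac NaBu replicate 1, whose list was long, and 78.7% for replicate 2, whose list was short. Overlaps were 59.0% and 46.3% for H3K18bu, 45.2% and 51.1% for H4K12bu, 35.3% and 38.2% for H3K18pr, 28.8% and 43.2% for H4K12pr, and 17.1% and 18.5% for H4K12ac in NaPr. Regions over a region of any input list made up 5.13% to 15.3% of distal regions, against 12.0% to 24.7% of promoter regions.

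AP-1, the FOS and JUN dimer that binds many enhancers downstream of growth-factor signalling, was more frequent at distal summits than at promoter summits in every group. Summit windows with a match made up 3.01% to 5.23% of distal windows, with flank windows 5 kb to either side at 3.32% to 3.95%. The highest shares were in H4K12bu (4.82% and 5.23%), H3K18bu replicate 2 (4.86%) and H4K12ac in NaPr (4.47% and 4.50%), and the lowest in H4K12pr (3.01% and 3.26%). On the log2 scale of summit over flank the mean was 0.17 at distal regions, -0.50 at promoters and 0.12 in gene bodies. The distal value exceeded the promoter value by 0.68, in 10 of 10 groups (exact sign-flip permutation test, adjusted p = 0.00586), and the gene-body value by 0.06 in 8 of 10 groups (adjusted p = 0.0527). GC content differed between the classes, 44.96% to 52.3% at distal summits and 46.9% to 60.8% at promoter summits, and its part in the AP-1 difference was not tested. The untreated input list, made without any antibody, had a higher value at its distal summits (1.15, 6.51% of windows) than any immunoprecipitated library.

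The AP-1 values of the marks went different ways. H4K12pr had -0.21 and -0.12, H3K18pr -0.08 and 0.15, H4K12bu 0.43 and 0.41, and H3K18bu -0.10 and 0.46. In NaPr cells H3K18ac had 0.25 and 0.38 and H4K12ac 0.39 and 0.44. Propionyl values lay below the acetyl values of the same cells at both sites, by 0.28 and 0.58, and H4K12bu lay above H4K12ac of NaBu cells by 0.36. Over the 4 strata the acyl minus acetyl difference was -0.13 (two-sided exact permutation test, adjusted p = 0.486), and at q under 0.05 it was -0.39 (adjusted p = 0.00694). It was 0.17 within the NaBu run (exact permutation, p = 0.444) and -0.43 in NaPr cells, where mark and run cannot be told apart (p = 0.0556, the smallest possible). Acetyl libraries of NaPr cells exceeded untreated ones by 0.22 at both sites, with no overlap of libraries (exact permutation, p = 0.0556, the smallest possible, adjusted p = 0.111), and these libraries fell within 1 run. The NaPr input came from another run than the untreated input. At distal summits the untreated input had an AP-1 value of 1.15 and the NaPr input 0.22. The part of the inputs in this difference was not tested. The H3K18 minus H4K12 difference was -0.02 (exact permutation, adjusted p = 0.820), and -0.38 among the 8158 strongest regions of each library (adjusted p = 0.00463).

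The other motifs belong to lineage and signalling factors. SMAD, the letters bound by the mediators of TGF-beta signalling, had log2 values of -0.18 to 0.81 at distal summits, with a median of 0.49 over the 20 libraries against -0.41 to 0.30 in inputs. CDX, for the caudal homeobox factors that specify intestine, lay below the flanks in all 20 libraries (-0.84 to -0.08). KLF, for Krüppel-like factors, was 0.28 to 0.48 in the propionyl libraries and -0.47 to -0.24 in the butyryl ones. TCF/LEF, the Wnt effectors, ranged from -0.51 to -0.19 in propionyl and from -0.13 to 0.58 in butyryl libraries. These values are descriptions without a test. GC content also differed, at 47.6% to 52.3% in propionyl and 44.96% to 49.3% in butyryl distal summits, and its part in the motif values was not tested.

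Merging distal regions that shared at least 1 bp over the 20 lists gave 128459 regions that covered 57.6 Mb. A library was taken to hold a merged region when any of its regions overlapped it. Most were seen once: 94202 (73.3%) were held by 1 library, 17011 by 2 libraries and 262 by all 20. Regions held by many libraries were wide and often lay over input. The median width rose from 255 bp (1 library) to 4711 bp (20 libraries), and the share over an input region from 3.37% to 51.1%. A wide region is more easily overlapped, so that width and sharing cannot be told apart here.

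**Figure D3:**
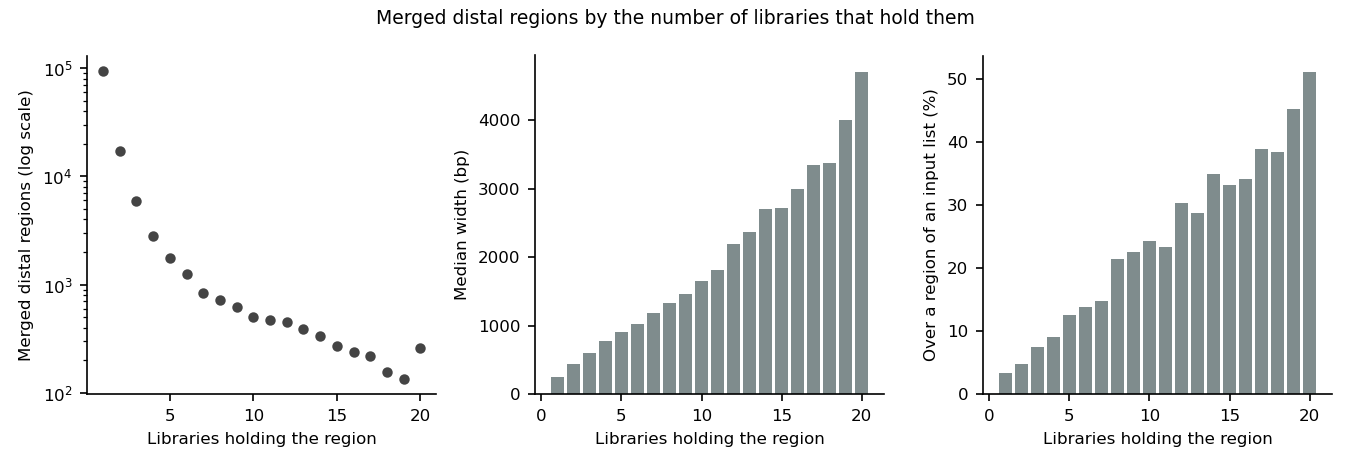
Number (log scale), median width and share over an input region of merged distal regions, against how many of the 20 libraries hold them. Numbers fall from 94202 at 1 library to 135 at 19 and stand at 262 at 20, while width and input overlap are higher in regions held by more libraries.

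Both replicates of at least 1 group held 14234 of the merged regions (11.1%), and 7698 of these belonged to 1 group only. H3K18ac untreated had 5812, H4K12ac untreated 5582, H3K18pr 5106, H4K12pr 4865, H3K18ac NaBu 4322, H3K18ac NaPr 4294 and H4K12ac NaPr 2948. The butyryl groups and H4K12ac NaBu had fewer, with 1519 (H3K18bu), 484 (H4K12bu) and 886. Small sets lay inside larger ones. Of the H4K12bu regions 97.1% were also held by both H3K18ac NaBu replicates and 91.7% by both H3K18bu replicates, and of the H3K18bu regions 89.7% were held by H3K18ac NaBu. In the other direction H3K18bu held 31.5% and H4K12bu 10.9% of the H3K18ac NaBu regions. H3K18pr and H4K12pr shared 54.9% and 57.6% of their regions with each other, and 61.0% and 61.5% with untreated H3K18ac. Regions in no other group numbered 7 for H4K12bu, 12 for H4K12ac NaBu and 76 for H3K18bu. H3K18pr had 1198, H4K12pr 1102 and untreated H4K12ac 1488. Groups differed widely in size, so group size and sharing cannot be told apart in these percentages and counts. Sharing between groups was not counted over all regions, at promoters or in gene bodies. Whether this pattern is particular to distal regions was therefore not tested.

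**Figure D4:**
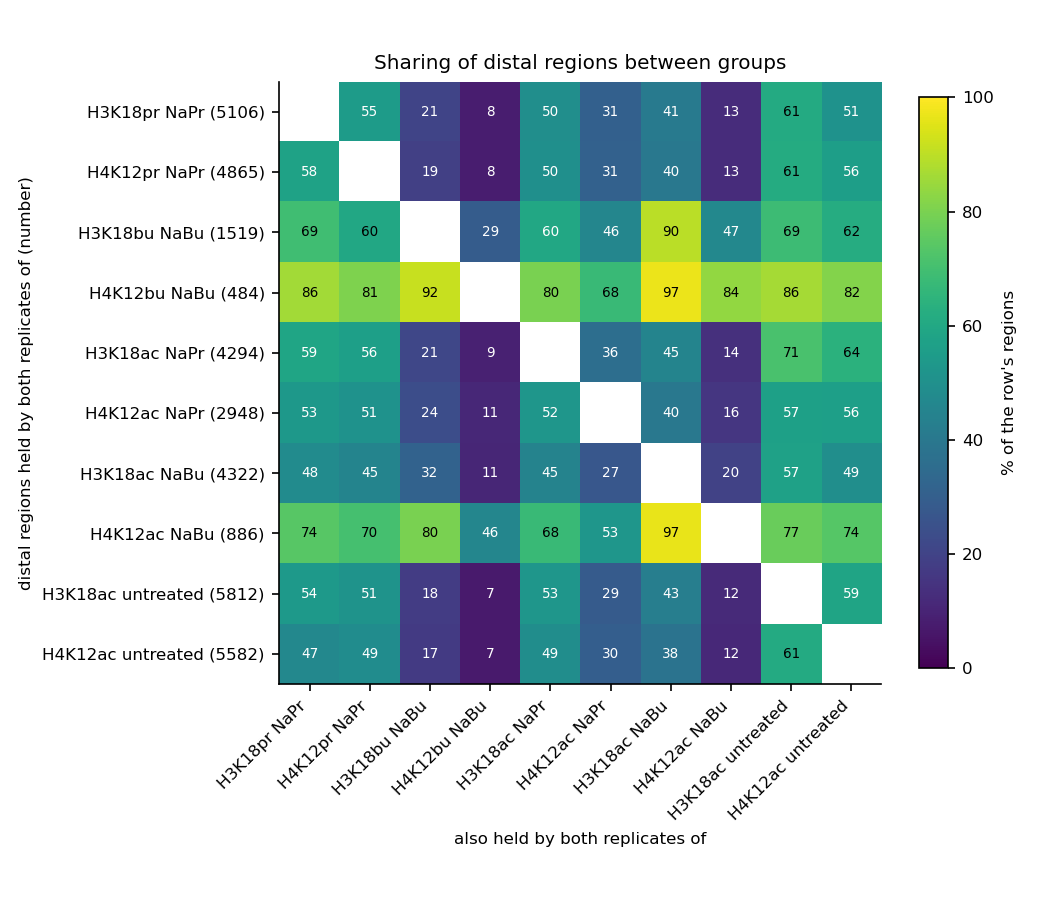
Percentage of the distal regions held by both replicates of the row's group (number in brackets) that both replicates of the column's group also held. The H4K12bu row runs from 67.8% to 97.1%, and the H4K12bu column from 7.08% to 45.8%. Group size and sharing cannot be told apart here, and sharing was not counted over all regions.

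Strong distal regions were often shared between marks. Among the 1204 strongest distal regions of each library, 7 of 20 libraries overlapped their own replicate most. H3K18pr replicates overlapped by 76.4% and 86.0%, and untreated H3K18ac replicates by 75.9% and 89.1%. The H4K12pr libraries were most like H3K18pr replicate 1 (81.6% and 80.4%), and both untreated H4K12ac libraries were most like untreated H3K18ac replicate 1 (82.5% each). The H4K12bu libraries and H3K18bu replicate 1 were most like H3K18ac NaBu replicate 2 (70.0%, 54.8% and 72.8%). Wide regions are more easily overlapped, so width and likeness cannot be told apart here, and likeness was not counted over all regions.

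Regions held by all 20 libraries and over no input region were ranked by their mean percentile of fold within the lists, and 9 of the first 10 are described. They were 2382 to 15879 bp wide. The first, at chr12:52866618-52880007 (13390 bp), lay 24.9 kb from the start of KRT78, a keratin gene in the type II keratin cluster. The H3K18pr libraries had summit folds of 66.8 and 42.5 there, the H4K12pr libraries 24.02 and 27.9, and the butyryl libraries 9.98 and 17.7 (H3K18bu) and 9.16 and 7.31 (H4K12bu). In H3K18ac it was 14.4 and 19.1 (NaPr), 24.4 and 37.0 (NaBu) and 36.2 and 23.2 (untreated), and in H4K12ac 5.40 and 3.92, 12.9 and 8.36, and 10.6 and 9.75. H3K18 libraries were above the H4K12 libraries of the same acyl group and treatment throughout, and both propionyl H3K18 values were above all others. Folds come from lists of different depth, so they rank regions within a list and are not signal ratios between libraries.

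The second, at chr11:9362098-9366371 (4274 bp), lay 20.4 kb from IPO7, a nuclear import receptor, with folds from 3.97 (H4K12ac NaPr replicate 2) to 50.9 (H3K18pr replicate 1). The third, at chr17:43314684-43317065 (2382 bp), lay 10.4 kb from CCDC200. There the order was another: folds were 37.98 and 33.4 in H3K18ac NaBu and 19.1 and 37.8 in H3K18bu, against 20.3 and 15.7 in H3K18pr and 6.65 and 6.60 in H4K12pr. At chr1:41490564-41506442 (15879 bp), 12.0 kb from EDN2, which encodes the peptide endothelin 2, folds reached 51.1 in untreated H3K18ac replicate 1 and 50.1 in H3K18pr replicate 1, and were 9.76 and 8.67 in H3K18bu.

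At the other 5 the library with the highest fold was again of H3K18pr or H3K18ac NaBu, with the same limit on comparing folds between lists. At chr20:41000916-41006932 near TOP1 (25.2 kb), the gene of DNA topoisomerase I, H3K18ac NaBu was highest (39.1 and 36.9), H3K18bu had 20.1 and 21.6, and H3K18pr had 14.4 and 8.02. H3K18pr replicate 1 was highest at chr1:207001083-207010764 near C1orf116 (68.5), at chr8:8292978-8298665, 90.7 kb from PRAG1 (51.2), at chr17:48469627-48476064, 42.2 kb from SKAP1 (45.1), and at chr21:43303208-43313218, 119.2 kb from the kinase gene SIK1 (63.6). The last 3 were closer to a lncRNA start, at 51.1, 12.1 and 24.1 kb.

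**Figure D5:**
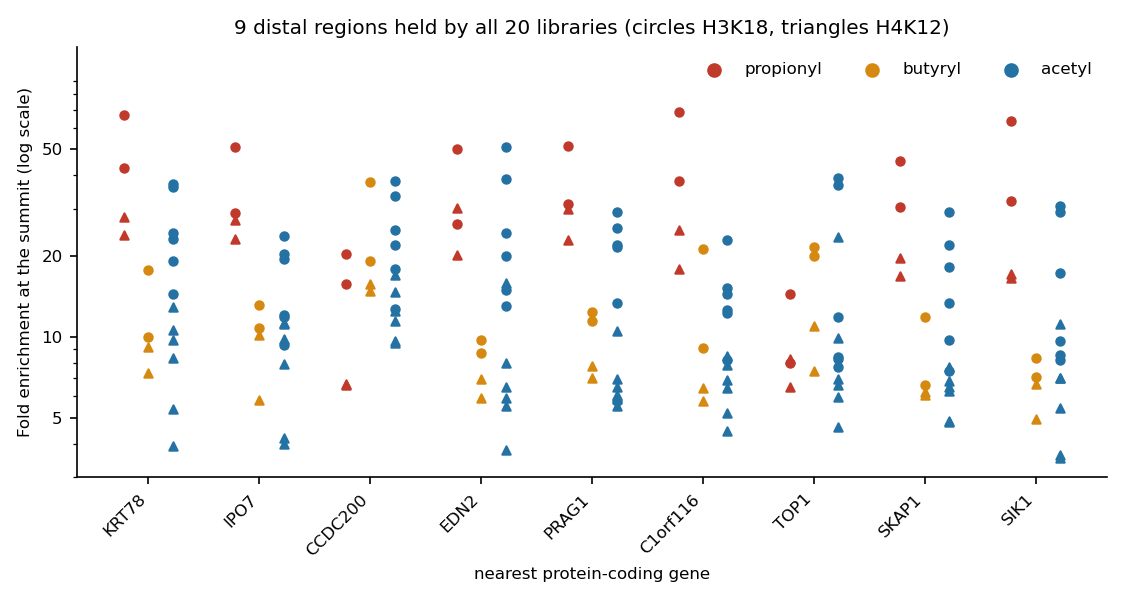
Fold enrichment at the summit (log scale) in each of the 20 libraries for 9 of the 10 distal regions ranked first, named by the nearest protein-coding gene. H3K18pr replicate 1 is highest at 6 of the 9 (45.1 to 68.5), where H3K18pr replicate 2 has 28.9 to 42.5. H3K18ac NaBu replicate 1 is highest at CCDC200 and TOP1. Folds come from lists of different depth and are not signal ratios between libraries.

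Some distal regions of NaPr cells were called in both propionyl libraries and neither acetyl library of the site, or the reverse. Mark and run cannot be told apart in these counts, and other groups could hold the same regions. A region was called one-sided when a group's 2 replicates held it and neither replicate of the other group did, among the merged distal regions of the 4 libraries. Of 46815 such merged regions, H3K18pr alone held 1316 (2.81%) and H3K18ac alone 1083 (2.31%), where over all regions of the genome the shares were 1.87% and 2.86%. For H4K12, of 54808, H4K12pr alone held 2640 (4.82%) and H4K12ac alone 1043 (1.90%), where the shares over all regions were 7.05% and 2.39%. H3K18pr therefore had 54.9% of the one-sided distal regions (95% Wilson interval 52.9% to 56.8%), against 39.6% of the one-sided regions anywhere (38.8% to 40.3%). H4K12pr had 71.7% (70.2% to 73.1%) against 74.7% (74.3% to 75.1%). Put the other way, the distal count came to 21.8% of the count anywhere for H3K18pr-only regions and 11.7% for H3K18ac-only regions. For H4K12 the values were 9.57% and 11.2%. Distal regions and all regions were merged separately, so these are ratios of counts and not shares of 1 set. The intervals cover counting error only, and no test over libraries was made on these counts. Without H3K18ac NaPr replicate 1 H3K18pr had 15.4% of one-sided distal regions, and without replicate 2 it had 15.8%. With 1 library left, acetyl-only regions need to be held by that library alone, which raises their number by construction. At 8158 regions per library the share was 87.3% for H3K18pr and 70.1% for H4K12pr.

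The one-sided regions of propionyl marks were wider and poorer in AP-1 than those of acetyl marks. H3K18pr-only regions had a median width of 748.5 bp and an AP-1 match in 3.34% of summit windows (flanks 2.96%), against 467 bp and 5.36% (flanks 3.23%) for H3K18ac-only regions. H4K12pr-only regions had 797 bp and 3.37% (flanks 3.43%), against 383 bp and 4.89% (flanks 3.45%). These are descriptions of the merged regions without a test. The shortest regions were longer in propionyl lists than in acetyl lists of NaPr cells, and mark and run cannot be told apart here. Leading the H3K18pr-only regions was chr7:129531197-129532241, 29.1 kb from SMKR1, with folds of 22.2 and 12.3 and a region in 10 of the 20 libraries. It was followed by chr13:44068117-44070505, 92.0 kb from SMIM2 (14.9 and 10.8), and chr6:110943782-110945928, 13.5 kb from GTF3C6 (13.3 and 10.8). Leading the H4K12pr-only regions were chr14:100192141-100192911, 33.0 kb from DEGS2, a gene of sphingolipid synthesis (11.4 and 11.3), chr7:157292163-157294082, 42.1 kb from the co-chaperone gene DNAJB6 (14.0 and 11.3), and chr4:3837313-3840491, 71.3 kb from the adrenergic receptor gene ADRA2C (10.0 and 11.5). The last of these was held by 18 of 20 libraries, so that it lacked a region in the H4K12ac NaPr pair and in no other library.

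Folds of the acetyl-only regions of NaPr cells come from deeper lists and are not comparable with those of the propionyl-only regions. The named regions of both directions were picked by their percentile of fold within the list, so that percentile does not compare the marks either. By their percentile of fold within the list, taken in the lower replicate, the H3K18ac-only regions named stood at 91.7 to 94.1 and the H3K18pr-only regions at 93.8 to 96.3, while the H4K12ac-only regions stood at 97.7 to 99.1 and the H4K12pr-only regions at 98.3. For H3K18ac they were chr1:207152976-207153683, 49.0 kb from C4BPA (4.99 and 4.95), chr1:144560730-144561101, 32.0 kb from PPIAL4F (4.27 and 7.33), and chr19:4078303-4078922, 11.7 kb from the repressor gene ZBTB7A (5.91 and 4.28). For H4K12ac they were chr9:130950979-130951268, 11.8 kb from FIBCD1 (4.57 and 5.30), chr20:47844039-47844388, 57.6 kb from SULF2 (3.91 and 4.11), and chr2:131508034-131508707, 15.4 kb from MZT2A (3.86 and 3.74). The SULF2 region was held by 17 libraries in all. It lies inside the wider merged region chr20:47842444-47846764, whose summit window is printed above and which all 20 libraries held, so that both H4K12pr libraries had a region elsewhere within it. The MZT2A region was held by the H4K12ac NaPr pair and no other library.

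In the full lists few distal regions were held by both butyryl libraries and by neither acetyl library of the same NaBu cells. The butyryl-only shares were near those over all regions, and they changed with list length. Of 24516 merged distal regions H3K18bu alone held 55 (0.224%) and H3K18ac alone 2414 (9.85%), with 0.195% and 13.2% over all regions. Of 15182, H4K12bu alone held 22 (0.145%) and H4K12ac alone 293 (1.93%), with 0.143% and 2.91% over all regions. The butyryl shares of one-sided distal regions were 2.23% (1.72% to 2.89%) and 6.98% (4.66% to 10.3%), against 1.45% and 4.68% anywhere. The butyryl lists were short, and at 8158 regions per library these shares were 61.8% and 53.5%. The named H3K18bu-only regions were chr1:30791176-30791582, 33.6 kb from LAPTM5 (folds 4.45 and 5.71), chr2:6557057-6557460, 308.2 kb from RSAD2 and 61.7 kb from LINC01824 (3.89 and 4.07), and chr7:138395863-138396454, 63.9 kb from TRIM24 (3.88 and 6.77). Those of H4K12bu were chr3:4995850-4996418, 16.6 kb from BHLHE40 (4.52 and 3.68), chr3:45199616-45200100, 26.5 kb from TMEM158 (3.65 and 3.95), and chr9:114057594-114058036, 20.7 kb from AMBP (3.95 and 3.46). The BHLHE40 and TMEM158 regions were held by 18 libraries, every one but the H4K12ac NaBu pair.

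Other distal regions were held by both acetyl libraries and neither butyryl library. Those named were picked by the lower replicate's percentile of fold, so these percentiles do not compare the marks. The pools over no input region were also unequal. They held 2165 H3K18ac-only against 46 H3K18bu-only regions, and 251 H4K12ac-only against 21 H4K12bu-only regions. The lower replicate's percentile of fold was 94.9 and 96.0 for the H3K18ac-only regions against 63.0 to 77.4 for the H3K18bu-only regions, and 90.9 to 92.2 for the H4K12ac-only regions against 56.1 to 66.7 for the H4K12bu-only regions. For H3K18ac they were chr7:65081320-65081913, 74.8 kb from ERV3-1 (13.4 and 11.9), and chr10:124341410-124342668, 77.3 kb from OAT (13.4 and 10.9). Those of H4K12ac were chr1:9145525-9145821, 16.6 kb from GPR157 (7.32 and 5.54), chr1:67630553-67631850, 53.5 kb from the stress gene GADD45A (6.47 and 5.44), and chr20:53927003-53927319, 143.4 kb from BCAS1 (5.48 and 5.36).

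Between treated and untreated acetyl marks, the untreated libraries held more of the one-sided distal regions in all 4 comparisons. In NaPr cells H3K18ac alone held 683 (1.33%) of 51281 and untreated H3K18ac alone 1153 (2.25%), with 1.63% and 1.65% over all regions. H4K12ac in NaPr held 896 (1.55%) of 57771 and untreated H4K12ac 3200 (5.54%), with 1.53% and 9.43% over all regions. In NaBu cells H3K18ac held 1318 (2.81%) of 46853 and untreated 2521 (5.38%), with 2.82% and 5.81% over all regions, and H4K12ac held 206 (0.487%) of 42257 and untreated 4568 (10.8%), with 0.285% and 16.9%. The treated shares of one-sided distal regions were 37.2% (35.0% to 39.4%), 21.9% (20.6% to 23.2%), 34.3% (32.8% to 35.8%) and 4.32% (3.77% to 4.93%). The order turned at 8158 regions per library, where they were 61.4%, 57.1%, 67.6% and 51.4%, and without H4K12ac NaBu replicate 2, the short list, the last was 70.2%. Without H3K18ac NaPr replicate 1 the first was 80.8%, and without replicate 2 it was 84.4%, again with 1 library against 2.

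The distal regions held by both replicates of a group clustered near some genes. Of 20033 protein-coding genes 4777 (23.8%) were the nearest protein-coding gene of at least 1 such region, and 209 genes of at least 10. The gene with most was BCOR, a corepressor partner of BCL6, with 51, and then SULF2, which removes sulfate from heparan chains, with 45, TLE3, a Groucho corepressor, with 36, INHBB, an activin and inhibin subunit, and PTPN1, a tyrosine phosphatase, with 34 each, AXIN2, a Wnt target that restrains beta-catenin, with 33, BUD13 with 32, the transcription factor gene TFAP2C with 30, and B3GAT1 and TAFA5 with 27 each, tied with TBX3. A gene with much intergenic DNA around it can gather more, and per 100 kb of distal DNA nearest to the gene the values were 8.93 for BCOR, 15.1 for SULF2, 8.52 for TLE3, 16.96 for INHBB, 22.7 for PTPN1, 21.8 for AXIN2, 16.0 for TFAP2C and 4.76 for TAFA5, against 2.37 over all genes. Their regions lay far out, with a median distance of 79.3 kb (AXIN2) to 399.5 kb (TAFA5) from the protein-coding start. Some lay over a region of an input list: 13 for AXIN2, 9 for TLE3, 8 for INHBB and 7 each for SULF2 and PTPN1. The number was 6 for TFAP2C, 5 for BCOR, 3 each for BUD13 and B3GAT1 and 2 for TAFA5. Of all regions held by both replicates of a group 16.2% lay over input. No distance limit was set on the protein-coding gene, and a nearest gene need not be the one a region acts on.

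Groups differed at these genes. Near AXIN2 both replicates held 14 regions in H3K18pr, 17 in H4K12pr, 9 in H3K18bu, 6 in H4K12bu, 10 in H3K18ac NaBu and 26 in untreated H4K12ac. Near BCOR H3K18ac held 32 in NaBu and 26 in untreated cells and H4K12ac 23 in untreated cells, while every other group held 4 to 17. Near B3GAT1 untreated H3K18ac held 24 and every other group at most 6. Near PTPN1 the propionyl groups held 17 and 18, H3K18bu 1 and H4K12bu 0. Longer lists hold more regions, so these counts are not a comparison of signal.

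Gene lists that fit the tissue and the treatments were counted against the 23.8% of all protein-coding genes. These lists were 18 of 23 for EGF and MAPK signalling, 17 of 23 for focal adhesion and cytoskeleton, 12 of 20 for the Wnt pathway and its targets, 13 of 22 for TGF-beta, SMAD and ID genes, 10 of 20 for intestinal lineage transcription factors, 5 of 14 for the AP-1 family and 4 of 22 for ribosomal proteins, a housekeeping comparison. The median number of regions per gene was 2.0 in the EGF and Wnt lists, 1.5 in the TGF-beta and lineage lists, 1.0 in the adhesion list, and 0 in the AP-1 and ribosomal lists, as over all genes. Genes differ in the distal DNA they have, and 10889 protein-coding genes had any, of which 43.9% were nearest to a region. A gene without such DNA could not be counted, so the shares of all members are not comparable between lists. Of members with distal DNA, 18 of 21 (EGF and MAPK), 17 of 18 (adhesion), 12 of 14 (Wnt) and 13 of 20 (TGF-beta) were nearest to a region. The other lists had 10 of 16 (lineage), 5 of 9 (AP-1) and 4 of 7 (ribosomal). Per 100 kb of distal DNA the lists had 4.19 (EGF and MAPK), 9.46 (adhesion), 8.21 (Wnt), 4.05 (TGF-beta), 2.45 (lineage), 11.2 (AP-1) and 7.38 (ribosomal) regions.

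The leading members of each list were as follows. In the EGF and MAPK list they were SPRY4, an inhibitor of ERK signalling, with 16 regions, and the ERK phosphatase genes DUSP4 and DUSP5 with 12 and 11. In the Wnt list they were AXIN2 (33), the cyclin D1 gene CCND1 (24) and MYC (15). In the adhesion list they were RHOB (20) and TNS3 (15), and in the TGF-beta list BMP7 (20), ID2 (12) and SMAD7 (10). The lineage list was led by ELF3, an ETS factor of epithelia (10), and FOXA2 (10), and the AP-1 list by FOSL2 (9), BATF (4) and JUND (3). RPL11 and RPS3 had 3 each and RPL3 had 2. With MYC as the nearest protein-coding gene, at any distance, H3K18bu held 9 regions, H3K18ac NaBu 8, H4K12bu 1 and H4K12ac NaBu 3. Untreated H3K18ac held 3 and untreated H4K12ac 4, and H3K18pr and both NaPr acetyl marks held 3 each and H4K12pr 1. A single stretch of 7.77 kb, a median of 850.7 kb from the MYC start, held 5 H3K18bu regions and 3 of H3K18ac NaBu. At SPRY4 the propionyl groups held 12 each, H3K18bu 7 and H4K12bu 3.

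Regions of a group were stitched across gaps of up to 10 kb. H3K18pr then formed 3331 runs (395 with 3 or more regions) and H4K12pr 3178 (389), while H3K18bu formed 1252 (52) and H4K12bu 432 (7). The longest H3K18pr run, 17 regions over 108.3 kb at chr5:142199194-142307500, lay beside SPRY4. It was followed by 13 regions at chr11:69491327-69599046 (CCND1), 13 at chr20:50368903-50452198 (PTPN1), 10 at chr3:193853702-193897153 (HES1, a Notch target) and 9 at chr10:110352532-110429340 (SMNDC1). The CCND1 run also led H4K12pr, with 14 regions, before runs of 10 near ELF3, MOB2, SMURF2 and AXIN2. Regions over an input region numbered 6 in the SPRY4, PTPN1 and AXIN2 runs and 5 in the CCND1 run. They numbered 2 in the HES1, ELF3 and SMURF2 runs, 1 in the SMNDC1 run and 0 in the MOB2 run. These runs were not propionyl alone: inside the SPRY4 run H3K18ac held 14 regions in NaPr and 15 in untreated cells, and H4K12ac 12 and 16. The MOB2 run, at chr11:1514342-1549711, had 10 H4K12pr regions against 1 for H3K18pr, 4 for H4K12ac in NaPr and 4 in untreated cells.

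Butyryl runs were short. H3K18bu had 5 regions in a run beside SPRY4 and 5 within 7.77 kb at chr8:128584436-128592206, a median of 850.7 kb from MYC, its nearest protein-coding gene. At this second run H3K18ac NaBu held 3 regions and H3K18pr, H4K12bu, H4K12ac NaPr and H4K12ac NaBu 1 each, while H4K12pr, H3K18ac NaPr and both untreated groups held 0. Runs of 4 lay near SYF2, C1orf116 and AMN1. The longest H4K12bu run had 5 regions at chr8:125589837-125618864 near TRIB1, where H3K18ac NaBu held 7 and H3K18pr 1, and runs of 3 lay near AXIN2, TAF1B, SULF2 and BHLHE40. In the 4 runs of 3 every other group held at least 2 regions. Regions over an input region numbered 3 in the SPRY4, TRIB1 and AXIN2 runs and 2 in the SULF2 run. They numbered 1 in the SYF2, AMN1, TAF1B and BHLHE40 runs and 0 in the C1orf116 run and the run assigned to MYC.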

How the data were processed

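ChIP-seq libraries of SW480 cells were grouped by their titles. The authors processed reads with an ENCODE-type pipeline, aligned them with Bowtie2 2.3.1 to hg38 and called peaks per library with MACS2 2.1.0; versions are from the submitters' processing notes. The deposited peaks carry a fold enrichment (a ratio of pileup to local background) and −log10 p-values and q-values, which depend on the depth of each library and its input. The lowest deposited −log10 p was 2.00. Reads were not analysed, so depth was solved from fold and p at weak summits (−log10 p at most 15, background no lower than 0.3), where pileups within 0.1 of a whole number were 100% in the lists used.

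Summits were annotated with GENCODE 44 on hg38 (chromosomes 1 to 22, X and Y). All 2187390 peaks lay inside the chromosome lengths. The genome was classed at steps of 100 bp. Overlap meant at least 1 bp. Motif values are log2 ratios of the share of 200 bp summit windows with a match over that of windows 5 kb to either side. Groups were compared with two-sided exact permutation tests of library values within strata, and positional classes with exact sign-flip permutation tests over group means, adjusted by Benjamini-Hochberg within each family and called at 0.05. One-sided counts have no test. Alternatives were q under 0.05, the 8158 strongest regions per list, removal of regions over input, 20 to 100 kb, overlap of 50% of the shorter region, the replicate block, and leaving out each library.

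Named regions are the 10 held by most libraries over no input region, ranked by mean fold percentile, the 3 strongest one-sided regions per direction over no input region, the 10 genes nearest to most regions, the 3 leading members of each gene list and the 5 longest runs per acyl group. Some named items are not reported here. Members, lists and tests were chosen with earlier results of these data known. Statistics were tested on simulated data. Python 3.11.15, numpy 2.4.6, pandas 2.3.3, scipy 1.17.1, pysam 0.24.0 and matplotlib 3.10.9 were used.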

Additional observations from a re-analysis of the deposited data

Results flagged for a closer look

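AP-1 enrichment at distal summits moved in opposite directions, with all libraries apart, in some pairs of strata. The acyl minus acetyl difference (log2) was -0.28 for H3K18pr in NaPr cells and 0.36 for H4K12bu in NaBu cells, so the effects differed by -0.65. It was -0.58 for H4K12pr in NaPr cells, which differed from that of H4K12bu by -0.94. The H3K18 minus H4K12 difference was 0.20 for propionyl and -0.10 for acetyl marks in NaPr cells, which differed by 0.30. These differences between strata were not tested. Each rests on 2 libraries per group, and the propionyl libraries came from a run of their own.

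The untreated input list, whose motif values enter no comparison and whose regions serve only to mark overlap with input, had an AP-1 enrichment of 1.15 (log2) at its 5410 distal summits, where 6.51% of summit windows and 2.93% of flanks held a match. The NaPr and NaBu inputs had 0.22 and -0.07. Of the regions of that list 13.3% lay at promoters, against 2.40% and 2.13% in the NaPr and NaBu inputs.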

How the results depend on the processing

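Limits are those of lists: they depend on depth and threshold, folds are not comparable between libraries, 2 libraries a group leave little power within a stratum, and run and mark cannot be told apart for propionyl marks. With q under 0.05 the acyl minus acetyl AP-1 difference was -0.39 and passed the test, AP-1 was 0.0385 for H3K18 minus H4K12 and 0.0679 for NaBu minus untreated (both of opposite sign), distal minus promoter width was -112.1 bp and no longer passed, distal minus gene body width was -7.70 bp and passed, and the fold difference from gene bodies was 0.00655. With 8158 regions per library, acyl minus acetyl width (232.2 bp), the fold difference from promoters (-0.350) and replicate overlap against promoters (-1.94 points) no longer passed. The H3K18 minus H4K12 share (-0.222 points), AP-1 for NaBu minus untreated (0.18), width against promoters (224.6 bp), overlap against gene bodies (3.29 points) and AP-1 against gene bodies (-0.0708) changed sign, and H3K18 minus H4K12 width (663.2 bp) and AP-1 (-0.38) passed. Without regions over input, AP-1 against gene bodies was 0.0815 and passed. At 20 to 100 kb AP-1 was 0.0201 for H3K18 minus H4K12 and 0.0151 for NaBu minus untreated, and width (-8.58 bp) and overlap (-2.10 points) against gene bodies passed. The cause was not tested.

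The replicate block left acyl minus acetyl width at 117 bp but with an adjusted p of 0.0703 (exact permutation), and changed no other call among 10 results. Correlations between same-numbered libraries were -0.0034 to 0.040. They cannot decide whether such libraries belong together, because 73.3% of merged distal regions were held by 1 library, which keeps such correlations small either way. The paired result for width therefore stands beside the unpaired one.

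The shares of one-sided distal regions, in the order of the report (H3K18pr, H4K12pr, H3K18bu and H4K12bu against acetyl, then H3K18ac and H4K12ac in NaPr and in NaBu against untreated), were 57.7%, 84.0%, 0.231%, 0%, 33.8%, 13.02%, 21.2% and 0.954% at q under 0.05, and 87.3%, 70.1%, 61.8%, 53.5%, 61.4%, 57.1%, 67.6% and 51.4% at 8158 regions per library. Without regions over input H4K12pr had 67.9%, H3K18bu 4.86%, H4K12bu 11.5%, H3K18ac NaPr 40.9%, H4K12ac NaPr 23.5% and H3K18ac NaBu 38.8%. At 20 to 100 kb H3K18pr had 57.0%, H4K12pr 69.8% and H4K12ac NaPr 24.02%. An overlap of 50% of the shorter region moved none of the 8 beyond its interval.

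Leaving out 1 library at a time moved the shares, in the same order, over 15.4% to 88.1%, 18.1% to 92.8%, 0.895% to 30.7%, 0.317% to 40.6%, 5.13% to 84.4%, 7.10% to 78.4%, 7.51% to 81.4% and 1.52% to 70.2%, since 1 library then stands against 2. H3K18 minus H4K12 ranged from 2.66 to 4.40 points in share (no longer passing without H3K18ac NaPr replicate 2, either H4K12ac NaPr replicate or H3K18ac NaBu replicate 1), 19.8 to 52.6 bp in width and -0.0756 to 0.0367 in AP-1. Acyl minus acetyl ranged from 103.4 to 130.6 bp in width (no longer passing without H3K18ac NaBu replicate 1 or H4K12ac NaBu replicate 1) and -0.396 to 1.78 points in share. The share ranged from -1.87 to 2.47 points for NaPr minus untreated, AP-1 from -0.110 to 0.0725 for NaBu minus untreated, and against gene bodies width from -6.95 to -5.35 bp and AP-1 from 0.0424 to 0.0736.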

Other observations

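Distal regions were spread unevenly over the chromosomes. Regions held by both replicates of at least 1 group numbered 23.7 per Mb of distal DNA over the genome, 58.4 on chromosome 17, 56.4 on chromosome 20, 49.0 on chromosome 19 and 44.4 on chromosome 22, against 8.14 on chromosome 4, 12.4 on chromosome X and 13.001 on chromosome 18. Distal regions of the 3 input lists numbered 55.8 per Mb over the genome, 93.8 on chromosome 20, 91.7 on chromosome 7, 76.0 on chromosome 17 and 74.1 on chromosome 19, and 32.5 on chromosome 22, 37.0 on chromosome 4, 39.2 on chromosome X and 25.9 on chromosome 18. The part of copy number, gene density or mappability in these values was not tested.

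By the number of libraries that held a merged distal region, AP-1 was found at the strongest summit of 3.59% of regions held by 1 library (flanks 3.28%), 3.69% of those held by 10 to 17 (flanks 3.36%) and 3.62% of those held by 18 to 20 (flanks 4.34%). SMAD was furthest above its flanks among regions held by 10 to 17 libraries, with 2.296% of 2874 windows against 1.27%. Among the 553 regions held by 18 to 20 libraries TCF/LEF was found in 3.62% of windows against 2.62% of flanks. These are counts of windows, and no test was made.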
